A study of Mus musculus with 18 samples.

Results

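The genes described here encode the constitutive subunits of the mouse proteasome, in liver regenerating after removal of 2/3 of the organ. They were taken by symbol: every listed gene named Psma, Psmb, Psmc, Psmd or Psme followed by a number, without the interferon-induced Psmb8, Psmb9 and Psmb10 and without pseudogenes, and with at least 30 reads summed over the 16 complete libraries. This gave 39 members of 17180 listed genes, namely 8 Psma, 7 Psmb, 6 Psmc, 14 Psmd and 4 Psme genes. The member nearest the read minimum was Psma8 with 103 reads, and the nearest gene left out was Psmb11, the thymus-specific catalytic subunit, with 16 reads. Psmc3ip, which shares the prefix but is no proteasome subunit, was left out by the number rule.

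The proteasome degrades proteins tagged with ubiquitin. Its 20S core is a barrel whose outer rings are built from the alpha subunits (Psma genes) and whose inner rings are built from the beta subunits (Psmb genes), among which Psmb5, Psmb6 and Psmb7 carry the protease sites. The 19S cap recognises tagged proteins and unfolds them, using a ring of ATPases (Psmc genes) and a set of non-ATPase subunits (Psmd genes), whereas Psme genes encode alternative activators that bind the ends of the core. In the liver, as in other tissues, proteolysis by the proteasome removes cell-cycle regulators and misfolded proteins, and its subunit genes are known to be induced together by NFE2L1 when proteasome activity falls.

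The livers came from C57BL/6 mice. One group had a sham operation, and 8 groups had a 2/3 partial hepatectomy and were sampled 0.5, 2, 4, 24, 48, 72, 120 or 168 h later. Each group had 2 libraries, and each library was made from the pooled RNA of 3 mice, so a difference between the 2 libraries of a group is a difference between pools, and the spread between single mice is not seen. When the sham livers were taken is not stated, so resection and time since the operation cannot be told apart. The labels used here name no sex or age.

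Libraries held between 7.78 M and 9.16 M reads, as the headers of the count tables state. The tables of sham replicate 2 and 0.5 h replicate 1 stop at 52 and 157 reads and list 8026 and 4908 genes, so the main test covered the 4906 genes listed in both, with all 18 libraries. Of the 39 members, 37 were in that set. Psmd10 and Psma8 were not, and were tested in the 16 complete libraries. The liver label was checked against its markers: all 10 hepatocyte markers were listed in every complete library, with a summed level of 86360 to 187000 CPM (read counts scaled to library size), while 6 T and B lymphocyte markers summed to between 1.56 and 5.45 CPM. Levels below are CPM scaled by trimmed mean of M values (TMM), differences are log2 fold changes with their standard error (SE), and a member is said to rise or fall only where the adjusted p of edgeR's quasi-likelihood test, corrected over all genes tested, was under 0.05.

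In sham liver the levels per transcript length differed between members, also among subunits of the finished particle. On the RPKM scale (reads per kilobase of transcript scaled to depth, with the TMM factor, mean of the 2 sham pools, or the 1 complete pool for Psmd10 and Psma8), Psme1 had 105, Psmb1 104, Psma4 101 and Psmb7 101, and the catalytic Psmb5 and Psmb6 had 46.6 and 71.7. The 6 ATPases lay between Psmc6 at 39.7 and Psmc1 at 80.7 RPKM. Lower levels were found for Psmd14, the deubiquitinase of the cap, at 24.1 RPKM and for Psme4, which encodes the activator PA200, at 25 RPKM. Lower still were Psmd5 at 16.5, Psmd9 at 12.6 and Psmd10 at 4.54 RPKM, whose products are chaperones that help assemble the ATPase ring and leave the finished particle. Psma8, an alpha subunit known from testis, had 0.442 RPKM.

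Summed over the 37 members, the level was highest at 24 h. The 2 sham pools summed to 3100 and 3197 CPM, the 4 h pools to 3604 and 3697 CPM, the 24 h pools to 3956 and 3780 CPM and the 48 h pools to 3247 and 3474 CPM. At 72 h the sums were 3110 and 3190 CPM, within the range of the sham pools. Both 24 h pools lay above every other pool.

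**Figure D1:**
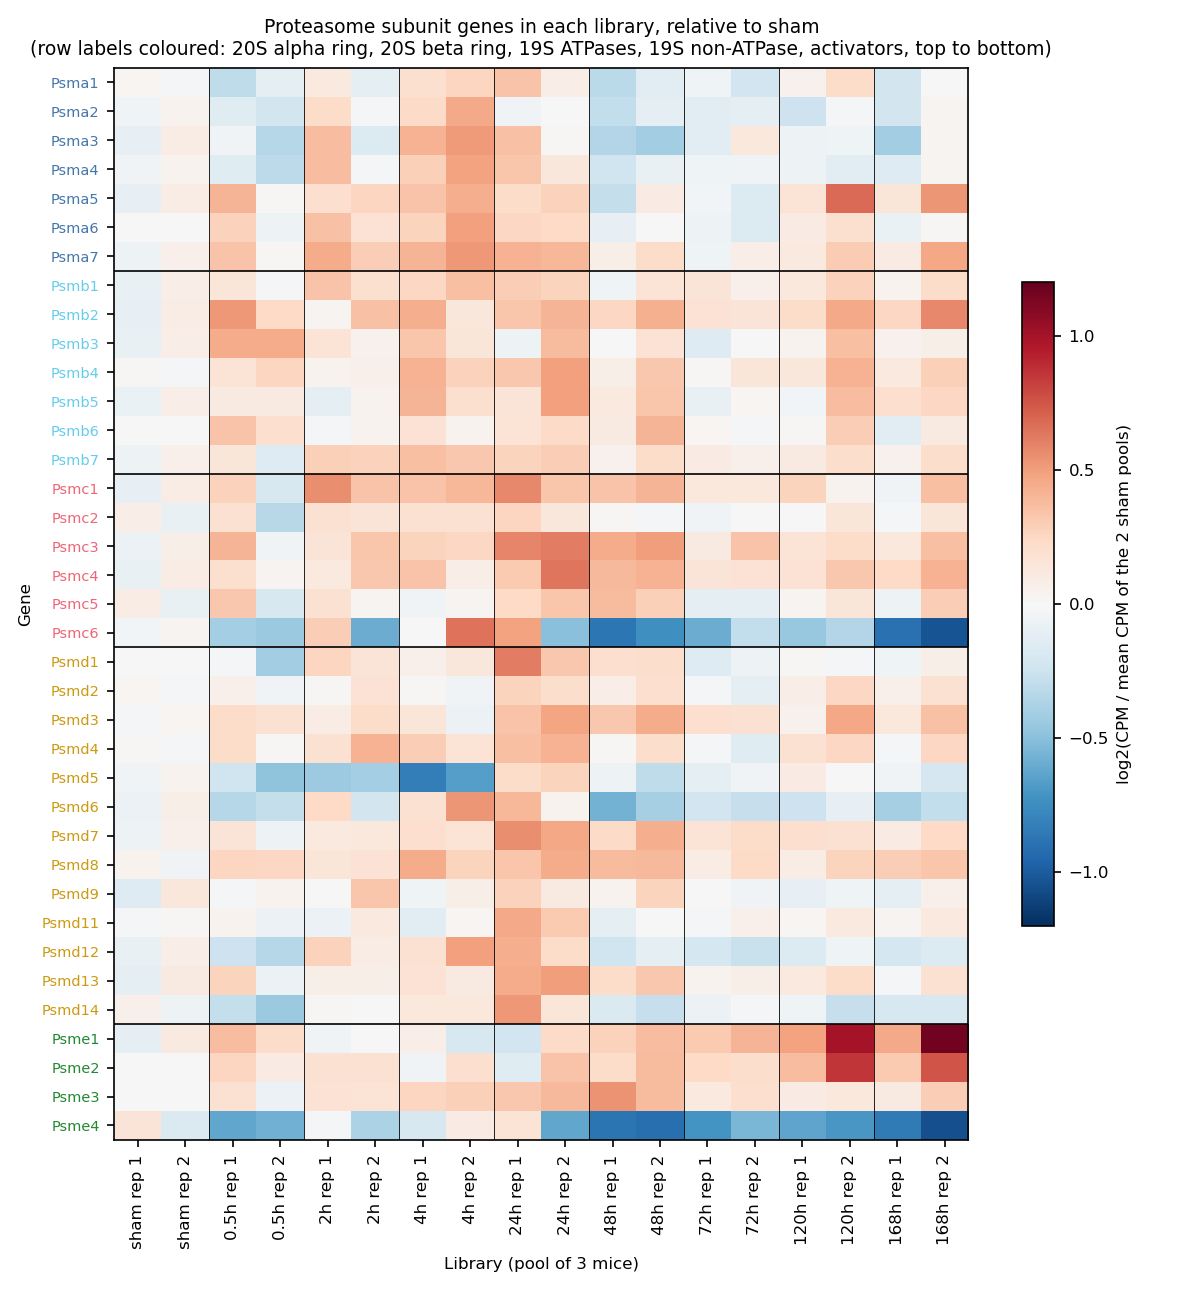
log2 ratio of each member's level (CPM, TMM-scaled) in each of 18 libraries to the mean of the 2 sham pools, for 37 members grouped by their place in the particle (20S alpha ring, 20S beta ring, 19S ATPases, 19S non-ATPase subunits, activators); red is higher and blue is lower. The 4 h and 24 h columns are mostly red, Psmd5 is blue at 4 h, and Psmc6 and Psme4 are blue from 48 h on and differ between the 2 pools at 24 h.

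Over the whole course, 16 of the 37 members (43.2%) differed among the 9 groups, against 68.6% of all 4906 genes tested. By part of the particle these were 5 of 7 alpha subunits, 0 of 7 beta subunits, 1 of 6 ATPases, 7 of 13 non-ATPase subunits and 3 of 4 activators. No beta subunit had an unadjusted p under 0.05 in this test. In a fit corrected for transcript G+C share 15 members differed, of which 9 were among these 16. The split by part changed there. None of the alpha subunits was called, with Psma7 nearest (adjusted p 0.053, edgeR), and the beta subunit Psmb5 was called (0.0222). Without the correction the smallest p belonged to Psmd5 (adjusted p 0.000998, edgeR), and Psmd12 (0.00269), Psme4 (0.00617) and Psmd6 (0.00625) came next. Psmd12 was not called in the corrected fit (adjusted p 0.056, edgeR). The count of 16 fell to 9 when the first sham pool or the first 48 h pool was left out, and to 10 when the second sham pool or the second 4 h pool was.

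At 24 h more members rose than at any other time tested. The ATPases Psmc3 and Psmc4, the cap subunits Psmd1, Psmd7, Psmd8, Psmd11 and Psmd13, the beta subunit Psmb4 and the activator Psme3 rose, and no member fell. Thus 9 of 37 rose, against 7.87% of all genes called higher, and 0 fell, against 9.46% called lower. The median difference of the members was 0.28 log2 units, with 35 of 37 above 0, while the median of all genes was -0.01. By part, 5 of 13 non-ATPase subunits and 2 of 6 ATPases rose, with 1 of 7 beta subunits, 1 of 4 activators and 0 of 7 alpha subunits. Whether the parts differ from each other was not tested. The summed level of the 10 hepatocyte markers was lowest in these 2 pools. It was 96620 and 86360 CPM there, against 128900 CPM in the complete sham pool. Most of this sum was Alb, at 60530 and 49220 CPM against 90270 CPM. In the 18-library fit 3 of the 10 markers were called lower and 0 higher, against 9.46% and 7.87% of all genes. Fgb and Cps1 stood above both sham pools in both 24 h pools. The part of this sum in the result was not tested.

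Psmc3, an ATPase of the cap, stood at 92.7 and 102.3 CPM in the sham pools and at 146.6 and 149.0 CPM in the 24 h pools. Both 24 h pools were above every other pool of the study, and the difference from sham was 0.60 ± 0.14 (SE, n = 2 and 2 pools, adjusted p 0.0126, edgeR), a 1.52-fold rise. In the remaining pools Psmc3 had 129.4 and 94.9 CPM at 0.5 h, 108.7 and 122.8 CPM at 2 h, 117.6 and 115.5 CPM at 4 h, 132.5 and 138.2 CPM at 48 h, 105.0 and 123.6 CPM at 72 h, 109.1 and 113.8 CPM at 120 h, and 106.4 and 125.0 CPM at 168 h. It was next highest at 48 h.

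Psmd7, which in the cap pairs with the deubiquitinase Psmd14, had 88.7 and 96.1 CPM in sham and 136.3 and 127.3 CPM at 24 h, a difference of 0.51 ± 0.11 (adjusted p 0.00759, edgeR). Its 24 h pools were likewise above all others. Psmd11, a scaffold subunit of the lid, had 104.4 and 106.9 CPM in sham, 145.0 and 131.2 CPM at 24 h, and 97.2 and 105.3 CPM at 48 h. Psmd1, a scaffold of the cap's base, went from 160.8 and 160.0 CPM to 246.2 and 200.4 CPM. Psmd13, a lid subunit, went from 51.7 and 60.3 CPM to 76.2 and 79.1 CPM. For Psmd11, Psmd1 and Psmd13, too, the 24 h pools were the highest of all, and their differences from sham were 0.39, 0.48 and 0.47 log2 units. The share of all genes whose pools at 1 time stand above all others was not counted, for these or for other members described so.

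Psmb4, a non-catalytic beta subunit, had 70.9 and 69.6 CPM in sham and 87.9 and 98.6 CPM at 24 h (difference 0.41 ± 0.13, adjusted p 0.0435, edgeR). Its other pools had 78.8 and 83.9 CPM at 0.5 h, 72.1 and 73.3 CPM at 2 h, 93.8 and 85.0 CPM at 4 h, 73.8 and 88.0 CPM at 48 h, 70.7 and 77.5 CPM at 72 h, 77.0 and 93.8 CPM at 120 h, and 76.3 and 85.7 CPM at 168 h. In the main test it was called against sham at 24 h and at no other time, although the first 4 h pool, the second 48 h pool and the second 120 h pool were above the lower of its 24 h pools. In the fit corrected for transcript G+C share Psmb4 was called at 4 h as well (0.375 ± 0.122, adjusted p 0.0246, edgeR). Psmc4, an ATPase, had 87.4 and 98.9 CPM in sham and 115.6 and 145.6 CPM at 24 h and rose by 0.49 log2 units. Psmd8, a lid subunit, had 120.4 and 113.4 CPM in sham, 159 and 140.8 CPM at 4 h, 147.2 and 159 CPM at 24 h and 152.1 and 152.7 CPM at 48 h, and was called at each of these times. Psme3, the nuclear activator PA28 gamma, rose by 0.35 log2 units at 24 h.

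The 3 catalytic subunits did not pass the test at 24 h. Psmb5, the chymotrypsin-like site, had 38.4 and 42.9 CPM in sham and 45.1 and 57.0 CPM at 24 h, a difference of 0.33 ± 0.15 (adjusted p 0.155, edgeR). Its remaining levels were 43.9 and 43.7 CPM at 0.5 h, 37.7 and 41.9 CPM at 2 h, 53.9 and 46.5 CPM at 4 h, 44.2 and 51.1 CPM at 48 h, 38.1 and 41.2 CPM at 72 h, 39.7 and 52.4 CPM at 120 h, and 46.8 and 48.2 CPM at 168 h. Psmb6, the caspase-like site, differed by 0.20 at 24 h and Psmb7, the trypsin-like site, by 0.28. For each of the 3 genes the pools at 24 h were above both sham pools, but none passed the test. The share of all genes whose pools separate in this way was not counted.

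The other members lay as follows at 24 h. Among ATPases, Psmc1 differed from sham by 0.46, Psmc5 by 0.28, Psmc2 by 0.20 and Psmc6 by 0.07. Among non-ATPase subunits, the differences were 0.41 for Psmd3, 0.39 for Psmd4, 0.35 for Psmd14, 0.33 for Psmd12, 0.24 for Psmd2, 0.24 for Psmd5, 0.23 for Psmd6 and 0.19 for Psmd9. Alpha subunits ranged from -0.02 for Psma2 to 0.41 for Psma7, with 0.22 for Psma1, 0.19 for Psma3, 0.24 for Psma4, 0.25 for Psma5 and 0.24 for Psma6. Of the beta subunits, Psmb1 differed by 0.28, Psmb2 by 0.37 and Psmb3 by 0.18. Psme1 and Psme2, the PA28 subunits, differed by 0.02 and 0.12, and Psme4 by -0.17. In the 16 complete libraries Psmd10 differed by 0.16 and Psma8 by -0.04, both with an SE above their difference.

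The count at 24 h rested on few pools. Leaving out a sham pool gave 0 (the first) or 3 (the second), and leaving out a 24 h pool gave 6 (the first) or 3 (the second). It was 0 in the fit of the 16 complete libraries and 14 with DESeq2. With library totals alone as scaling, which moves the median of all genes by 0.11, 20 members were higher and 0 lower.

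**Figure D2:**
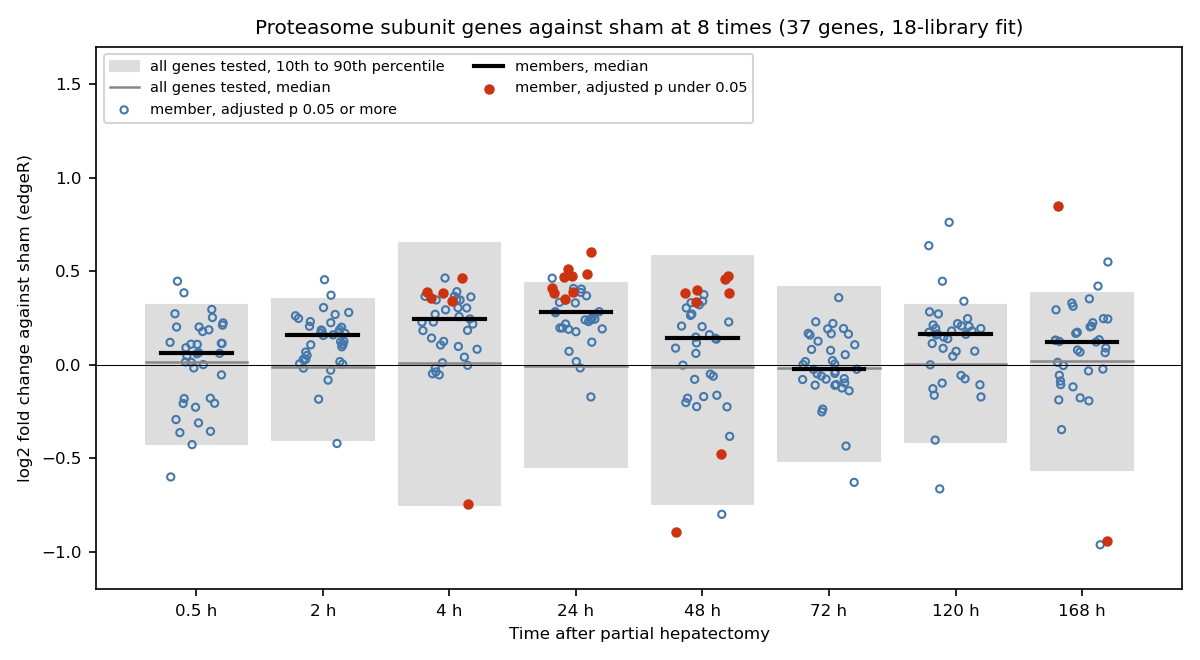
log2 fold change against sham (y axis, edgeR fit of 18 libraries) of the 37 members at 8 times after resection (x axis); filled red points have an adjusted p under 0.05, the black bar is the members' median, and the grey box spans the 10th to 90th percentile of all genes tested with their median as a grey line. The members' median is highest at 24 h, at 0.28, and next at 4 h, at 0.25.

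Of the members that rose at 24 h, 7 have a start-site window in the RefSeq promoter table (GRCm38.p6), and 32 of the 39 members have one. Stretches of 150 bases, from 120 bases before to 30 bases after the start site, are shown for these 7 because they rose together, and for Psmd5 and Psme4 because they were the members that fell furthest at 4 h and 48 h. They are written 5′ to 3′ on the gene's strand, and capitals mark every match on either strand to TGACNNNGC (the core of the antioxidant response element that NFE2L1 and NFE2L2 bind), CCAAT (NF-Y), CCGGAA (ETS factors) or GGGCGG (SP factors); neighbouring matches can overlap and then form 1 run.
Psmc4 (chr7:28050063-28050212, - strand): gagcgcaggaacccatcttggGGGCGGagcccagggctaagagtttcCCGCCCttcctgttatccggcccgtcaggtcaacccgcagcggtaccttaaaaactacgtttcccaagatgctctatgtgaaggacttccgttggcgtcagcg
Psmd1 (chr1:86064499-86064648, + strand): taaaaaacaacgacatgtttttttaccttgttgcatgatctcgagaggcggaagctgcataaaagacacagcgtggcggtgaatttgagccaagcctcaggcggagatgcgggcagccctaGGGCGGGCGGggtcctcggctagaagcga
Psmd8 (chr7:29180644-29180793, - strand): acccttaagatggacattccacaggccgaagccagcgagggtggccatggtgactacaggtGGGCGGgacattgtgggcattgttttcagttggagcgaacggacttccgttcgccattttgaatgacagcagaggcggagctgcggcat
Psmd11 (chr11:80428495-80428644, + strand): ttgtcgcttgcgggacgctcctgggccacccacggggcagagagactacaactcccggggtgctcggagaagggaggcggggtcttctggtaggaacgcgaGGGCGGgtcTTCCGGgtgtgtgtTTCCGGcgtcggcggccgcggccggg
Psmd13 (chr7:140882274-140882423, + strand): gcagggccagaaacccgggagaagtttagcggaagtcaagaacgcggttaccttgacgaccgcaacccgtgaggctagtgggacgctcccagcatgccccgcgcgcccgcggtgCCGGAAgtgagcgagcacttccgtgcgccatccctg
Psmb4 (chr3:94886929-94887078, - strand): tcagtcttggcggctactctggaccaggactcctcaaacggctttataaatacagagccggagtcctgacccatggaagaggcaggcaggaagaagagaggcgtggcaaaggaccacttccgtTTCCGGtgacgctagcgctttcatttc
Psme3 (chr11:101316093-101316242, + strand): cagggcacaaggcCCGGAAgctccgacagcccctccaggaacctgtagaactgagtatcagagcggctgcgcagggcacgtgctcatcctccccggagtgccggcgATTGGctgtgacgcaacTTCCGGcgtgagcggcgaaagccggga
Psmd5 (chr2:34870933-34871082, - strand): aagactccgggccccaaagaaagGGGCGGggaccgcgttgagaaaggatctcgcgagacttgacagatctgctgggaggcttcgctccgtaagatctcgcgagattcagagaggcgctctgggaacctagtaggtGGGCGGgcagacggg
Psme4 (chr11:30771655-30771804, + strand): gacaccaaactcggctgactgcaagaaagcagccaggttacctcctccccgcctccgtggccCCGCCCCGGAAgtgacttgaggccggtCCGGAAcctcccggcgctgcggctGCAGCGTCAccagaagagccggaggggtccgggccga

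Over the whole 300-base windows, CCGGAA was found in 17 of the 32 members with a window (53.1%), against 14.9% of all 32851 windows. GGGCGG was found in 21 of 32 (65.6%), against 35.7% of all windows. CCAAT was found in 12 of 32 (37.5%, against 37.4%), and TGACNNNGC in 6 of 32 (18.8%, against 12.4%), namely Psmb5, Psmb6, Psmc6, Psmd9, Psmd12 and Psme4. These member shares count genes with a match in any of their windows, while the shares of all windows count each window. Counted by window, the members' 35 windows held CCGGAA in 51.4%, GGGCGG in 62.9%, CCAAT in 34.3% and TGACNNNGC in 17.1%. Among the stretches above, Psmd11 and Psme3 each hold 2 CCGGAA matches, Psmd13 and Psmb4 hold 1, and Psmc4, Psmd1 and Psmd8 hold GGGCGG only. The Psmd11 stretch holds GGGCGG and the Psme3 stretch CCAAT besides. In the Psme4 stretch 2 CCGGAA matches lie with 1 GGGCGG match, which overlaps one of them, and with 1 TGACNNNGC match that begins 7 bases before the start site, and Psmd5 holds 2 GGGCGG matches. A match of these letters is a description of the window and not evidence of a bound factor.

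At 4 h the largest member difference was a fall. Psmd5, the chaperone gene, had 33.0 and 35.0 CPM in sham, 25.1 and 25.7 CPM at 2 h, 19.1 and 21.4 CPM at 4 h, and 39.6 and 40.9 CPM at 24 h. The 4 h pools were the lowest of the study and the 24 h pools the highest. The fall at 4 h was -0.74 ± 0.14 (adjusted p 0.000854, edgeR), to 0.597 of sham, and the difference between 24 h and 4 h was 0.99 ± 0.13 (adjusted p 0.000102, edgeR). At the times not yet given it had 28.8 and 24.3 CPM at 0.5 h, 32.6 and 27.5 CPM at 48 h, 31.4 and 33.0 CPM at 72 h, 36.3 and 33.9 CPM at 120 h, and 33.1 and 29.5 CPM at 168 h. From 48 h on its pools lay near those of sham. Of all members, only Psmd5 was called at 4 h in the fit of the 16 complete libraries (-0.73, adjusted p 0.012, edgeR).

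The core subunits Psma4 (0.39), Psma6 (0.39), Psma7 (0.47) and Psmb7 (0.34) and the cap subunit Psmd8 (0.36) rose at 4 h. In all, 5 of 37 members rose and 1 fell, against 16.9% of all genes called higher and 18.8% called lower, so neither share exceeded that of all genes. In a fit corrected for the G+C share of the transcript, chosen after the data were seen and called the G+C-corrected fit from here on, Psma7 (0.48) and Psmd8 (0.40) were called again. Psma4 (0.25, adjusted p 0.105, edgeR), Psma6 (0.28, adjusted p 0.0902) and Psmb7 (0.29, adjusted p 0.0699) were not. Psmb4 (0.375, adjusted p 0.0246, edgeR) and the catalytic Psmb5 (0.385, adjusted p 0.0207) were called at 4 h only with the correction. Without it the members' median was 0.25 and that of all genes 0.01. Psma4, a structural alpha subunit, had 107.4 and 113.7 CPM in sham and 134.8 and 154.4 CPM at 4 h. Elsewhere its pools held 99.9 and 88.9 CPM at 0.5 h, 142.8 and 108.8 CPM at 2 h, 139.6 and 121.7 CPM at 24 h, 93.7 and 103.7 CPM at 48 h, 106.6 and 107.2 CPM at 72 h, 106.1 and 100.4 CPM at 120 h, and 99.4 and 113.2 CPM at 168 h. Its 2 h pools lay apart, one near sham and one near the 4 h level. Psma6, another alpha subunit, had 87.8 and 86.7 CPM in sham and 105.0 and 123.1 CPM at 4 h. At the other times Psma6 had 105.4 and 83.5 CPM at 0.5 h, 111.1 and 98.1 CPM at 2 h, 103.6 and 103.0 CPM at 24 h, 81.3 and 87.2 CPM at 48 h, 83.9 and 77.9 CPM at 72 h, 93.5 and 99.8 CPM at 120 h, and 82.6 and 88.0 CPM at 168 h. Both 4 h pools were above both sham pools.

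Psma7, whose product is also an alpha subunit, had 49.0 and 53.3 CPM in sham and 67.8 and 73.4 CPM at 4 h. Psmb7 had 93.9 and 101.9 CPM in sham and 125.4 and 122.4 CPM at 4 h, the highest pair of the study. Beyond these it had 108.0 and 87.9 CPM at 0.5 h, 119.4 and 118.3 CPM at 2 h, 117.6 and 119.8 CPM at 24 h, 101.3 and 114.0 CPM at 48 h, 105.0 and 102.3 CPM at 72 h, 105.4 and 113.6 CPM at 120 h, and 101.6 and 113.0 CPM at 168 h. The 2 h and 24 h pools came next.

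The direction of the members' difference at 4 h depends on the scaling. With library totals alone the median of all genes shifted by -0.37 at 4 h, the members' median became -0.13, and the calls became 0 higher and 5 lower, and limma-trend on log2(RPKM + 1), which has the same scaling, also gave 0 higher and 5 lower. The count of 6 was 1 when either sham pool was left out and 2 when the second 4 h pool was.

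Earlier, no member was called. At 0.5 h the counts were 0 of 37 higher, against 0.163% of all genes, and 0 lower, against 0.0408%, with 7 members at an unadjusted p under 0.05, 0 called by DESeq2 and 0 by limma-trend. At 2 h they were 0 higher, against 4.61%, and 0 lower, against 4.16%, with 6 members at an unadjusted p under 0.05, 1 called by DESeq2 and 1 by limma-trend. Psmb2, a non-catalytic beta subunit with the largest p over the 9 groups in its ring, had 59.7 and 67.7 CPM in sham and 91.3 and 74.9 CPM at 0.5 h (difference 0.39 ± 0.16, adjusted p 0.258, edgeR). Afterwards its pools held 65.2 and 81.2 CPM at 2 h, 85.9 and 70.2 CPM at 4 h, 79.9 and 84.5 CPM at 24 h, 75.5 and 85.6 CPM at 48 h, 71.8 and 71.1 CPM at 72 h, 74.0 and 87.1 CPM at 120 h, and 75.5 and 94.9 CPM at 168 h. All of these but 1 pool at 2 h lay above both sham pools.

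Between 4 h and 24 h, 4 of 37 members rose (17.5% of all genes) and 1 fell (17%). The 4 were the chaperone gene Psmd5 and the cap subunits Psmd11 (0.44), Psmd1 (0.38) and Psmd7 (0.33), and Psma2, an alpha subunit, fell by 0.36 log2 units, from 62.6 and 73.6 CPM to 52.1 and 53.7 CPM. In the G+C-corrected fit the 4 rises were called again, among 5 higher and 0 lower, and Psma2 differed by -0.09 (adjusted p 0.702, edgeR). Here too scaling matters: by library totals alone, where the median of all genes is 0.48 in this comparison, 30 members were higher and 0 lower. The count of 5 was 3 when any 1 of the sham, 24 h or 48 h pools was left out, and 2 when either 4 h pool was.

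**Figure D3:**
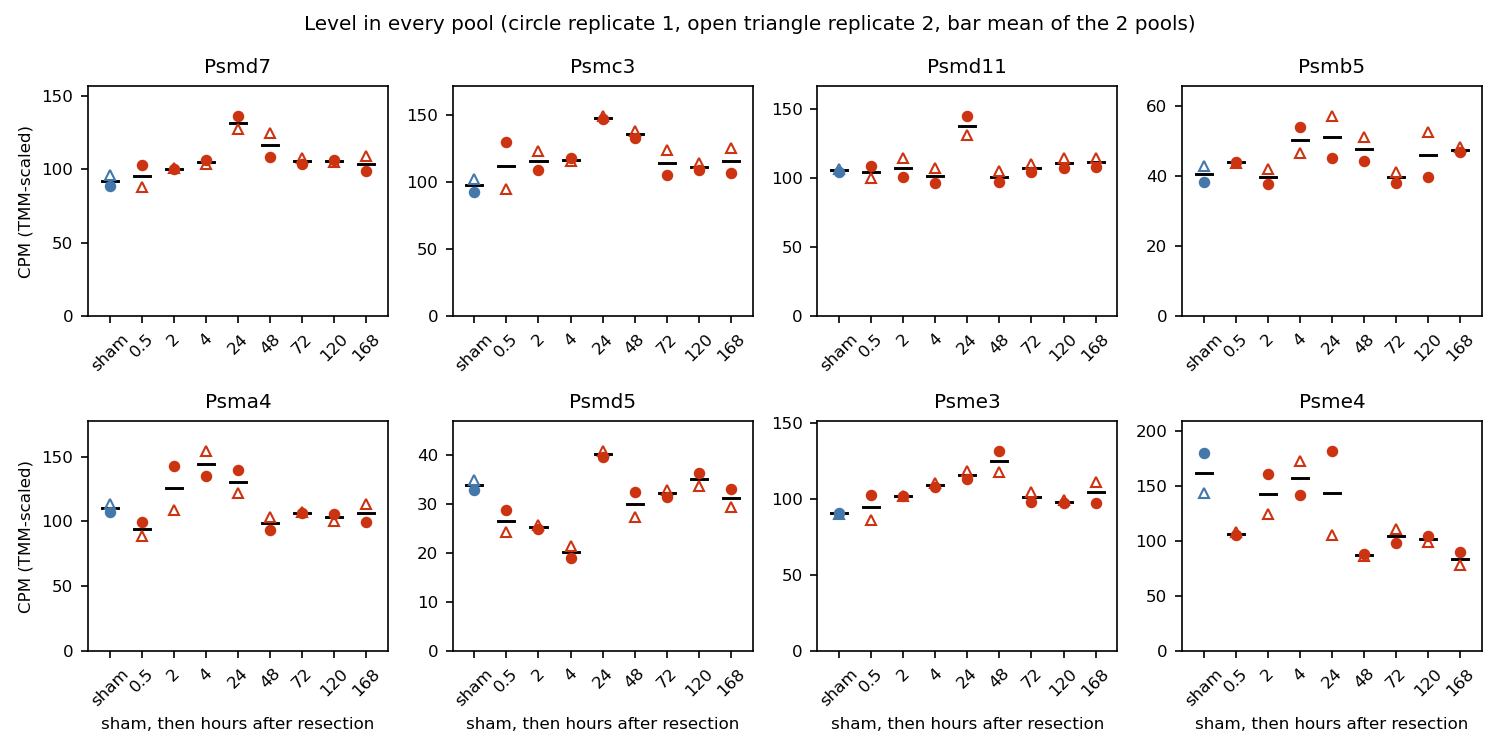
Level (CPM, TMM-scaled, y axis from 0) in every pool of sham (blue) and of 8 times after resection (red) for 8 members; circles are replicate 1, open triangles are replicate 2 and bars are the mean of the 2 pools. Psmd7, Psmc3 and Psmd11 are highest at 24 h, Psmd5 is lowest at 4 h with 19.1 and 21.4 CPM, and Psme4 is low from 48 h on, with 87.8 and 86.1 CPM at 48 h.

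At 48 h the members went both ways, in shares at or below those of all genes. Psmc3 (0.47), Psmc4 (0.40), Psmd3 (0.39), Psmd7 (0.34), Psmd8 (0.38) and Psme3 (0.46) were above sham, and Psmd6 (-0.48) and Psme4 (-0.89) were below it. Thus 6 of 37 rose, against 18% of all genes, and 2 fell, against 18.9%, and the members' median was 0.14. Psme3 had 91.0 and 90.4 CPM in sham and 131.5 and 117.9 CPM at 48 h (0.46 ± 0.11, adjusted p 0.00665, edgeR). Of the alpha subunits 1 of 7 and of the beta subunits 7 of 7 were above 0, none of them called. In the G+C-corrected fit 6 of 7 alpha subunits (from -0.03 for Psma5 to 0.18 for Psma2) and 6 of 7 beta subunits (from -0.01 for Psmb3 to 0.36 for Psmb1) were above 0, so the split was not seen there. The count of 8 was 2 when any 1 of the sham or 48 h pools was left out, and it was 15 higher and 1 lower with library totals alone, where the median of all genes is 0.15.

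From 24 h to 48 h, 7 of 37 members fell (6.58% of all genes) and 0 rose (7.87%). They were Psmd6 (-0.71), Psme4 (-0.72), Psmd14 (-0.57), Psmd12 (-0.50), Psmd11 (-0.45), Psma1 (-0.44) and Psmd5 (-0.42). In the G+C-corrected fit Psmd6 (-0.57), Psmd11 (-0.44) and Psme4 (-0.43) were called again, and 4 of the 7 were not. These were Psmd14 (-0.28, adjusted p 0.139, edgeR), Psmd12 (-0.26, adjusted p 0.165), Psma1 (-0.18, adjusted p 0.367) and Psmd5 (-0.33, adjusted p 0.0959).

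Psmd12, a lid subunit, had 122.0 and 105.1 CPM at 24 h and 76.3 and 83.7 CPM at 48 h, beside 84.8 and 95.4 CPM in sham. Its further values were 75.8 and 71.2 CPM at 0.5 h, 109.3 and 96.0 CPM at 2 h, 102.3 and 127.0 CPM at 4 h, 78.0 and 74.9 CPM at 72 h, 80.2 and 87.1 CPM at 120 h, and 77.6 and 80.5 CPM at 168 h. It was thus high at 4 h and 24 h and near or below sham later, while its difference from sham at 48 h was 0.14 in the G+C-corrected fit. Psmd6, also of the lid, had 72.3 and 56.3 CPM at 24 h and 36.98 and 41.6 CPM at 48 h, beside 52.0 and 57.5 CPM in sham. Psmd14, the deubiquitinase, had 54 and 41.6 CPM at 24 h and 33.3 and 31.1 CPM at 48 h, beside 39.3 and 36 CPM in sham. The pools of these 3 genes did not overlap between 24 h and 48 h, and the share of all genes that separate so was not counted. The count of 7 was 0 when the first 24 h pool or either 48 h pool was left out.

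Part of the variation among members went with the base composition of their transcripts. The G+C share of the 37 members' transcripts ran from 37% (Psmc6) to 58.3% (Psmd3). Across the 37 members the difference between the 2 pools of a group correlated with this share at r = 0.78 at 2 h, -0.74 at 4 h and 0.76 at 24 h, and the difference of the group means from sham at r = 0.77 at 0.5 h and 0.79 at 48 h. Across all 4889 genes with a share the same values were 0.55, -0.44, 0.60, 0.66 and 0.37. The member values named were the strongest of each kind. Between pools of the other groups the members' r ran from -0.105 (72 h) to 0.45 (120 h), with 0.17 in sham. Against sham at the other times it ran from -0.16 (4 h) to 0.71 (168 h), with 0.47 at 24 h. Over all genes the 24 h difference from sham had r = 0.09. These are correlations across genes of the same libraries, given as a description.

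Psmc6, an ATPase gene, has the lowest G+C share of the members. It had 60.7 and 63.5 CPM in sham, 86.9 and 43.7 CPM at 24 h, 34.1 and 37.2 CPM at 48 h, and 33.4 and 30.3 CPM at 168 h. In between and before it had 46.8 and 45.6 CPM at 0.5 h, 76.3 and 41.2 CPM at 2 h, 62.1 and 97.6 CPM at 4 h, 41.1 and 50.7 CPM at 72 h, and 45.4 and 48.5 CPM at 120 h. The 2 h and 4 h pools also lay apart. Its 24 h pools lay on either side of the sham pools, and its 48 h pools below them (-0.80 ± 0.31, adjusted p 0.0566, edgeR). In the G+C-corrected fit its difference at 48 h was -0.06. In that fit all 9 members called at 24 h were called again among 13 higher and 0 lower, against 11.9% and 11.3% of its genes, and the fall of Psmd5 at 4 h was -0.82 (adjusted p 0.000336, edgeR). At 48 h it called 4 higher and 1 lower, of which 4 were also called without the correction, and Psmc3, Psmc4, Psmd3 and Psmd6 were not among its calls. At 4 h it called 4 higher and 1 lower, of which 3 were also called without the correction.

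**Figure D4:**
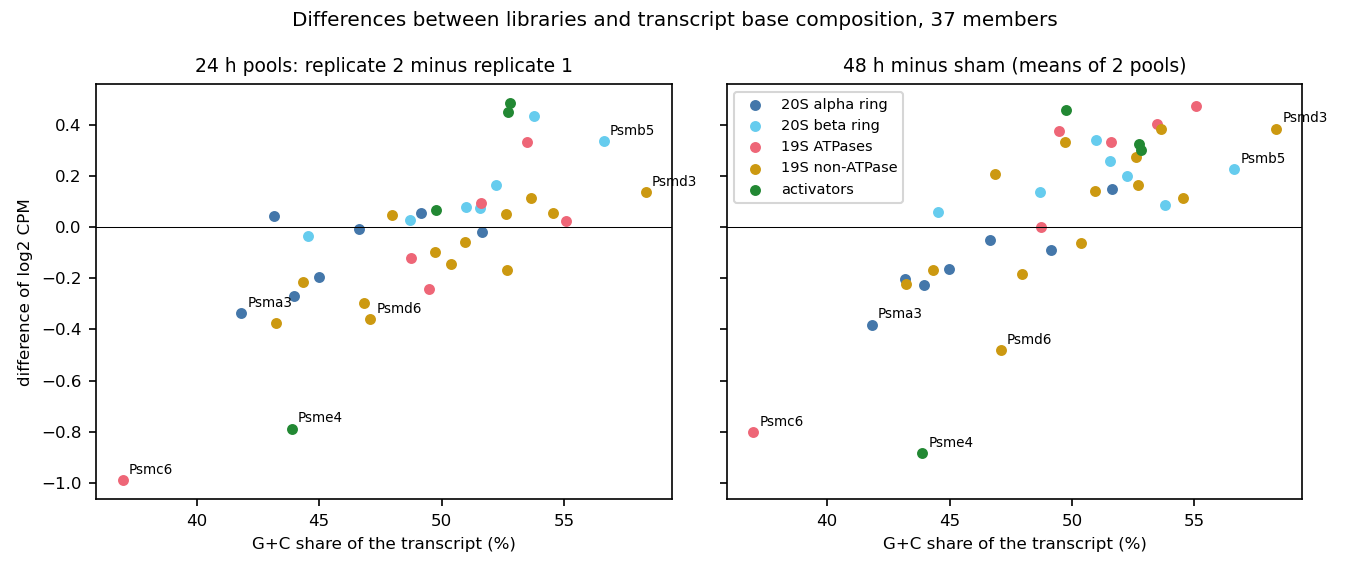
Difference of log2 CPM (y axis) against the G+C share of the transcript (x axis, %) for 37 members coloured by part of the particle; left, 24 h replicate 2 minus replicate 1, right, 48 h minus sham. Members with a low G+C share lie lower in both panels, with r = 0.76 on the left and 0.79 on the right, and Psmc6 and Psme4 are the lowest.

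Psme4, whose product PA200 caps the core and is known from chromatin and spermatogenesis, was low from 48 h on. It had 180.1 and 143.2 CPM in sham, 105.0 and 108.2 CPM at 0.5 h, 160.4 and 124.3 CPM at 2 h, 141.9 and 172.9 CPM at 4 h, and 181.7 and 105.2 CPM at 24 h. It then had 87.8 and 86.1 CPM at 48 h, 98.4 and 110.7 CPM at 72 h, 104.5 and 99.5 CPM at 120 h, and 89.9 and 78.1 CPM at 168 h. All 8 pools from 48 h on were below both sham pools. It was called at 48 h (-0.89 ± 0.21, adjusted p 0.0063, edgeR) and at 168 h (-0.94 ± 0.21, adjusted p 0.0302, edgeR), and in the G+C-corrected fit the differences were -0.55 and -0.58, both with an adjusted p under 0.05. Its transcript has a G+C share of 43.9%.

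At 72 h, 0 of 37 members were called higher (6.16% of all genes) and 0 lower (6.42%), with 1 member at an unadjusted p under 0.05, 1 called by DESeq2 and 0 by limma-trend. At 120 h the counts were 0 higher (0.387%) and 0 lower (0.387%), with 5 members at an unadjusted p under 0.05, 3 called by DESeq2 and 0 by limma-trend. At 168 h, 1 rose (2.41%), Psme1, and 1 fell (3.34%), Psme4. This count of 2 was 0 when either sham pool or the second 168 h pool was left out. It was 1 when the first 168 h pool or either 0.5 h, 48 h or 72 h pool was left out, and 4 without the second 24 h pool. Against 48 h, 0 were higher at 168 h (11.5%) and 0 lower (9.32%), with 3 at an unadjusted p under 0.05, 1 called by DESeq2 and 3 by limma-trend, while library totals alone, where the median of all genes is -0.17, called 0 higher and 3 lower.

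Psme1 and Psme2 form PA28 alpha-beta, an interferon-inducible activator known from antigen processing. Psme1 had 95.04 and 110.4 CPM in sham, 124.1 and 132.5 CPM at 48 h, 127.6 and 135.9 CPM at 72 h, 143.4 and 205.0 CPM at 120 h, and 140.6 and 229.8 CPM at 168 h. Earlier it had 132.7 and 119.5 CPM at 0.5 h, 99.8 and 103.0 CPM at 2 h, 108.9 and 89.8 CPM at 4 h, and 87.8 and 120.1 CPM at 24 h. All pools from 48 h on were above both sham pools, and the replicate 2 pools of 120 h and 168 h were the highest. The difference at 168 h was 0.85 ± 0.22 (adjusted p 0.0453, edgeR), and it was not called in the 16 complete libraries. Psme2 had 50.1 and 50.6 CPM in sham, 65.2 and 91.6 CPM at 120 h, and 62.6 and 85.0 CPM at 168 h (0.55 ± 0.19 at 168 h, adjusted p 0.0886, edgeR). The pools of the other times held 60.1 and 53.9 CPM at 0.5 h, 57.2 and 57.0 CPM at 2 h, 48.9 and 57.9 CPM at 4 h, 45.7 and 63.9 CPM at 24 h, 58.7 and 65.7 CPM at 48 h, and 59.3 and 58.2 CPM at 72 h. For Psme2, too, replicate 2 of 120 h and of 168 h was highest.

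The inducible catalytic subunits, which replace their constitutive counterparts in the immunoproteasome and are not members, were highest in the same pools. Psmb8 had 21.0 and 25.9 CPM in sham, 31.9 and 60.1 CPM at 120 h, and 33.6 and 58.2 CPM at 168 h. Psmb10 had 19.6 and 20.4 CPM in sham, 21.3 and 47.3 CPM at 120 h, and 24.1 and 46.8 CPM at 168 h. Psmb9 had 9.48 CPM in the complete sham pool, 10.7 and 34.5 CPM at 120 h, and 15.9 and 32.6 CPM at 168 h. None of the 3 was called against sham at either time, with Psmb8 at 0.97 ± 0.33 at 168 h (adjusted p 0.0813, edgeR). The summed level of 8 Kupffer cell and macrophage markers was above the complete sham pool in both replicates of 120 h and 168 h. In replicate 1 of these times Psmb8, Psme1 and Psme2 were above both sham pools, and Psmb9 was above the complete one. Psmb10 had 21.3 and 24.1 CPM there, against 19.6 and 20.4 CPM in sham. The marker sum was 478.7 CPM in the complete sham pool, 875.5 and 1006 CPM at 120 h and 1071 and 1271 CPM at 168 h. No marker was at 0, and over all complete pools the sum ran from 398.5 to 1271 CPM. Of the 6 such markers in the 18-library fit, 5 rose at 168 h, against 2.41% of all genes, while in the 16 complete libraries 0 of 8 were called, with a median of 1.07 log2 units beside 1.16 before. Replicate 2 of 24 h had 1105 CPM of these markers with Psme1 at 120.1 CPM. In that pool the marker Marco had 455.4 CPM, against 22.3 and 14.7 CPM in sham. Clec4f had 106.1 CPM there, against 139.3 and 135.3 CPM in sham, and was the only marker of the list below sham in that pool. The others stood above every sham pool that lists them, from Cd5l (306.1 CPM against 122.5 and 134.0 CPM) to Csf1r (92.65 CPM against 86.66 and 86.72 CPM). The part of these cells in the Psme1 and Psme2 levels was not tested, and in whole liver more cells of a type and more RNA per cell cannot be told apart.

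**Figure D5:**
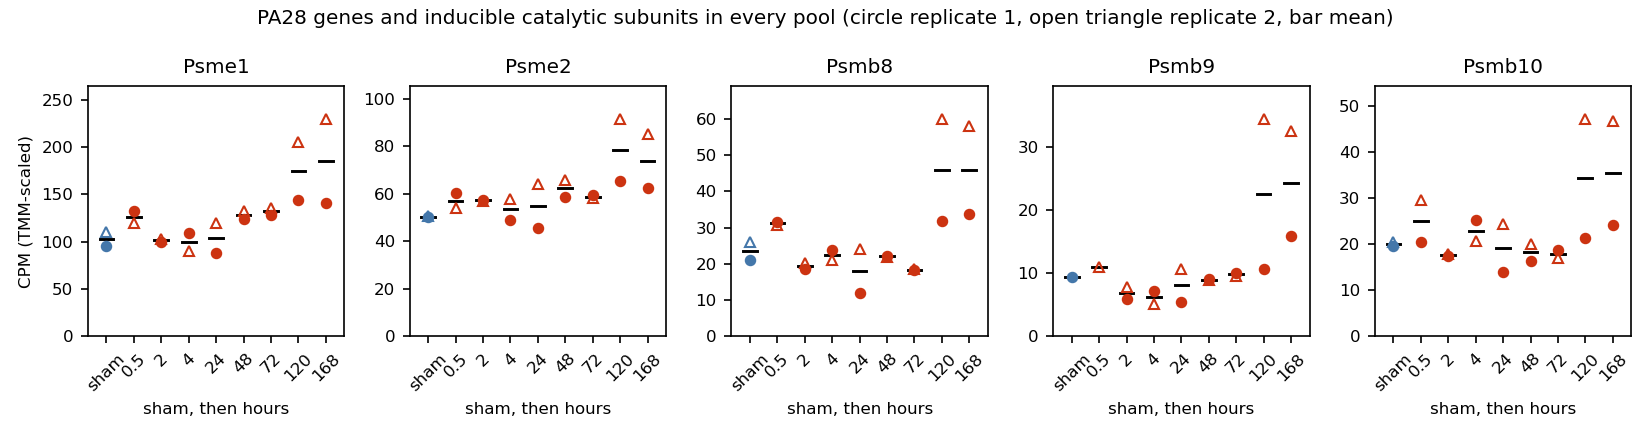
Level (CPM, TMM-scaled, y axis from 0) in every pool of sham (blue) and of 8 times after resection (red) for Psme1 and Psme2 and for the inducible catalytic subunits Psmb8, Psmb9 and Psmb10; circles are replicate 1, open triangles replicate 2 and bars the mean, and Psmb9 has 1 pool in sham and 0.5 h. Replicate 2 of 120 h and 168 h is the highest pool or next to it in all 5 panels, with Psme1 at 205.0 and 229.8 CPM.

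The remaining members named by the rule had large p over the 9 groups. Psma5, the alpha subunit with the largest p over the 9 groups, had 56.8 and 64.4 CPM in sham, 70.8 and 73.4 CPM at 24 h and 68.1 and 97.2 CPM at 120 h, so that its pools at 120 h differed by more than its group means. The rest of its pools held 80.3 and 61.3 CPM at 0.5 h, 69.6 and 72.6 CPM at 2 h, 77.0 and 82.0 CPM at 4 h, 49.8 and 65.1 CPM at 48 h, 59.1 and 54.2 CPM at 72 h, and 67.2 and 87.5 CPM at 168 h. Psmd9, the chaperone, had 29.5 and 36.2 CPM in sham and 39.7 and 35.3 CPM at 24 h, with the second sham pool above the second 24 h pool. Otherwise it had 32.5 and 33.9 CPM at 0.5 h, 32.7 and 41.5 CPM at 2 h, 31.7 and 34.5 CPM at 4 h, 33.9 and 39.6 CPM at 48 h, 32.7 and 31.9 CPM at 72 h, 30.6 and 31.8 CPM at 120 h, and 30.5 and 34.2 CPM at 168 h. Psmd9 had the largest p of the non-ATPase genes.

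Psmc2, an ATPase, had 108.5 and 96.2 CPM in sham and 122.3 and 112.5 CPM at 24 h. At further times it had 116.1 and 81.2 CPM at 0.5 h, 116.2 and 113.9 CPM at 2 h, 116.3 and 116.1 CPM at 4 h, 103.3 and 101.2 CPM at 48 h, 99.2 and 102.2 CPM at 72 h, 102.1 and 113.1 CPM at 120 h, and 101.6 and 113.0 CPM at 168 h. It had the largest p of all 37 members. Psmb6 had 74.0 and 74.6 CPM in sham, 83.0 and 87.4 CPM at 24 h and 68.1 and 80.1 CPM at 168 h. The others of its pools held 94.5 and 85.2 CPM at 0.5 h, 73.6 and 76.7 CPM at 2 h, 83.6 and 76.3 CPM at 4 h, 79.97 and 98.5 CPM at 48 h, 75.7 and 73.1 CPM at 72 h, and 75.1 and 91.3 CPM at 120 h. None of its differences from sham was called. Psmd10, known as gankyrin, had 6.61 CPM in the complete sham pool and from 6.12 to 11.8 CPM in the pools after resection, and was not called in any comparison. Psma8 ran from 0.116 to 1.44 CPM over the 16 complete pools and was not called either; its SE at 24 h was 0.91 log2 units.

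Genes that act with the proteasome were read from lists of their own. Of 6 measured genes of the group that controls proteasome genes, 1 was called higher at 24 h, against 7.87% of all genes, 1 at 48 h, against 18%, and 1 at 72 h, against 6.16%. That was each time Nfe2l2, which encodes NRF2, with 61.9 and 50.1 CPM in sham and 81.8 and 101.4 CPM at 24 h (0.71 ± 0.22, adjusted p 0.041, edgeR). It had 98.1 and 83.4 CPM at 48 h (0.70) and 87.8 and 122.0 CPM at 72 h (0.91), where no member was called. In the 16 complete libraries its differences at 24 h, 48 h and 72 h were 0.55, 0.53 and 0.73, none of them called. Nfe2l1, singled out after its values were seen because it is the known inducer, had 96.9 and 90.2 CPM in sham and 93.1 and 99.5 CPM at 24 h, and its difference was 0.04; NFE2L1 is regulated largely at the protein level, which these data do not measure.

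Among 13 measured genes for proteins that associate with the proteasome, 0 were called at 24 h, where 7.87% of all genes were called higher and 9.46% lower. At 4 h 1 was called higher and 2 lower, where 16.9% of all genes were called higher and 18.8% lower. At 4 h the ubiquitin receptor gene Ubqln4 fell by 0.83 log2 units and Psmf1, a proteasome inhibitor, fell by 0.48, while Shfm1 (Sem1), a small cap subunit outside the Psmd naming and named here only because it was called, rose by 0.60. At 48 h Zfand5, which activates the proteasome, fell by 0.95, and AI314180 (Ecpas), a proteasome scaffold also named only because it was called, fell by 0.56. The median of these 13 was 0.16 at 24 h, beside 0.28 for the members and -0.01 for all genes. Pomp, the core's assembly factor and the only 1 of 5 assembly genes in the 18-library fit, differed by 0.11 at 24 h and was not called.

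In the GENCODE vM21 annotation, 6 members share exon sequence with a protein-coding neighbour: Psmc3 with Slc39a13, Psmd1 with Htr2b and Gm21972, Psmd13 with Sirt3, Psma4 with AY074887, Psmb7 with Nek6 and Psme1 with Emc9. The longest of these overlaps is 329 bases (Psmd13) and the shortest 14 bases (Psme1). Non-coding neighbours overlap other members, most of all Gm26745, which shares up to 1849 bases with Psmd9 on the opposite strand. Since the labels describe no step that marks the strand, reads from such pairs cannot be told apart, and the counts of these members are uncertain by that share. In the mm10 build (RefSeq gene positions), Psmc3 lies at chr2:91054016-91059438, Psmd7 at chr8:107580380-107588482, Psmd5 at chr2:34852087-34870965, Psme4 at chr11:30771775-30881150, and Psme1 and Psme2 near each other at chr14:55578494-55581527 and chr14:55587440-55591101.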

How the data were processed

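RNA of 3 livers was pooled per library, enriched for poly(A) RNA with oligo(dT) and copied with random hexamers, per the labels' protocols; per the submitters' processing notes reads were placed on mm10, while no source used here names the aligner, counter or strand setting. The deposited tables hold raw read counts per gene and RPKM values, per the file headers. Counts were tested and, divided by TMM-scaled library size and gene length, gave the levels per length. The deposited RPKM served an alternative. The header totals were library sizes. Rows that name no gene held at most 0.0326% of a library and stayed out of tests. With edgeR 4.0.16, 1 quasi-likelihood model of 9 groups was fitted to 18 libraries and 4906 genes (TMM, count minimum 10, Benjamini-Hochberg, threshold 0.05), with a common spread (BCV 0.139). limma 3.58.1 and DESeq2 1.42.0 served as alternatives, beside other scalings, filters, library sets, a replicate term and a G+C correction chosen after seeing the data. The edgeR fit was tested on simulated data. Promoter windows came from RefSeq and transcript G+C from GENCODE vM21. Values in every library are given by rule for the 2 members of each part with the smallest p over all groups, the one with the largest, and the catalytic subunits; others printed per library were chosen after their values were seen. Members and lists were chosen with earlier results of these data known. One older symbol (Emr1) was added to the macrophage markers, and the printed promoter stretch set, after seeing the data. P-values measure only the spread between pools. DESeq2's missing adjusted values were left missing. The labels do not say whether the 2 pools of a group came from separate experiments. Some genes of the accompanying lists are not reported here.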

Additional observations from a re-analysis of the deposited data

How the results depend on the processing

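Counts of members called, given as the main value and then the alternatives. Over all 9 groups the count of 16 was 27 with DESeq2, 28 with library totals alone and 28 with limma-trend on log2(RPKM + 1). With DESeq2 it was 1 at 2 h, 12 at 4 h, 14 at 24 h, 1 at 72 h, 3 at 120 h, 5 at 168 h, 9 for 24 h against 4 h and 1 for 168 h against 48 h. With library totals alone it was 1 at 2 h, 20 at 24 h, 16 at 48 h, 30 for 24 h against 4 h, 4 for 48 h against 24 h and 3 for 168 h against 48 h. With limma-trend it was 1 at 2 h, 20 at 24 h, 17 at 48 h, 1 at 168 h, 31 for 24 h against 4 h, 4 for 48 h against 24 h and 3 for 168 h against 48 h. With only the 2 groups compared it was 3 at 4 h, 1 at 24 h, 15 at 48 h, 1 at 72 h, 4 at 168 h, 1 for 24 h against 4 h and 0 for 48 h against 24 h. In the 16 complete libraries it was 1 at 4 h, 0 at 24 h, 1 at 48 h, 0 at 168 h, 3 for 24 h against 4 h and 3 for 48 h against 24 h, and in 17 libraries 4 at 24 h, 1 at 168 h and 4 for 48 h against 24 h. The G+C-corrected fit, added after seeing the data, gave 1 at 2 h, 5 at 48 h, 1 at 72 h and 4 for 48 h against 24 h. RLE factors and no filter on low counts left every count within 1.5 times. Leaving out 1 library at a time gave 9 to 18 over all groups, 1 to 9 at 4 h, 0 to 9 at 24 h, 2 to 9 at 48 h, 0 to 1 at 72 h, 0 to 1 at 120 h, 0 to 4 at 168 h, 2 to 6 for 24 h against 4 h, 0 to 10 for 48 h against 24 h and 0 to 1 for 168 h against 48 h. Of single members at 24 h, Psme1 changed sign in 17 libraries (0.02 to -0.012), and leaving out 1 library moved Psmc6 between -0.514 and 0.475, Psme4 between -0.628 and 0.159, Psme1 between -0.236 and 0.217 and Psme2 between -0.151 and 0.334. The cause of these changes was not tested. With the replicate number as a replicate block the count was 16 over all groups, 6 at 4 h, 8 at 24 h, 8 at 48 h and 6 for 48 h against 24 h. Same-numbered libraries deviated together (r above 0.1) in 14 of 36 pairs of groups (r from -0.548 to 0.53). These correlations cannot decide whether the numbers pair the samples, since differences between pools also went with transcript G+C share.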
